A study of Homo sapiens with 6 samples.

Results

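The genes described here are the 10 that carry a signal from the adaptor MYD88 to the kinase TAK1, with the Pellino ubiquitin ligases that act beside them. They are *MYD88*, *IRAK1*, *IRAK2*, *IRAK3*, *IRAK4*, *PELI1*, *PELI2*, *PELI3*, *TRAF6* and *MAP3K7*, taken by symbol from a count table of 36601 genes, in which all 10 had a row. The libraries came from NK92, an IL-2-dependent human NK cell lymphoma line (written NK-92 in the labels), stably carrying a control shRNA (shCtrl, 3 libraries) or an shRNA against *MIR155HG* (shmiR155HG, 3 libraries). Cells of both groups had been treated with IL-2 at 1000 U/mL and IL-12 at 10 ng/mL for 12 h, so no library shows the untreated state. Whether the libraries of a group came from separate transductions, clones or cultures is not given in the sources used here, and p-values then measure the spread between these libraries, which may be technical. The 10 genes were chosen by their role in the pathway, with the fold changes and calls of shmiR155HG against shCtrl already known, among them the large difference of *PELI2*. Their fold changes and adjusted p-values between these groups are therefore descriptions from a fit over all genes, not independent evidence about the family.

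MYD88 is the adaptor of the IL-1 and IL-18 receptors and of most Toll-like receptors. After ligand binding it assembles the kinases IRAK4 and then IRAK1 or IRAK2, which recruit the ubiquitin ligase TRAF6 and activate TAK1, the kinase encoded by *MAP3K7*, upstream of NF-κB and the MAP kinases. IRAK3, also called IRAK-M, is known as a brake on this step, and the Pellino proteins are RING-type E3 ligases that bind IRAKs. In NK cells the route is best known for IL-18, which acts together with IL-12 in inducing IFN-γ.

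The total count per library lay between 33454786 and 39157264, and 12263 genes passed a filter of more than 1 CPM (counts scaled to a common library total) in at least 2 libraries. Levels are given as CPM after TMM scaling, edgeR's correction for library composition, and single values stand in the order of replicates 1, 2 and 3 of each group. The knockdown was visible in *MIR155HG*, at 1.77 ± 0.155 CPM (SD, n = 3) in shCtrl and 0.509 ± 0.216 CPM (SD, n = 3) in shmiR155HG (log2 fold change −1.78 with an SE of 0.43, adjusted p = 0.00450 from edgeR). These levels lie near the filter limit, which the gene passed through shCtrl. Without any filter the log2 fold change was −1.79 (adjusted p = 0.00216 from edgeR). Of 12 NK cell marker genes, 11 passed the filter and *CD7* did not, and these markers were not level between the groups. In the quasi-likelihood test 4 were lower in shmiR155HG, the effector genes *GZMB* (log2 fold change −1.14), *GZMA* and *PRF1* and the receptor gene *NCR3*, and 2 were higher, the transcription factor genes *EOMES* and *TBX21*. The summed list held 3843 to 3970 CPM in shCtrl and 3129 to 3273 CPM in shmiR155HG. Among 8 monocyte markers only *CSF1R* passed, the summed list held 4.37 to 6.13 CPM in shCtrl and 3.57 to 5.18 CPM in shmiR155HG, and *FCN1* and *CD163* were at 0. Of 6 B cell markers only *PAX5* passed, and it was higher in shmiR155HG (log2 fold change 0.49), with the list summing to 229 to 265 CPM in shCtrl and 341 to 344 CPM in shmiR155HG. Of 7 T cell markers *CD3E* and *TRAC* passed, and neither was called, with the list at 398 to 409 CPM in shCtrl and 399.8 to 417 CPM in shmiR155HG. Of 8 replication-dependent histone genes tested, 7 were higher in shmiR155HG, where the list summed to 82.7 to 89.1 CPM against 43.6 to 47.5 CPM in shCtrl. Most of these RNAs carry no poly(A) tail, on which the library preparation selected, and the part of the histone and marker differences in the values below was not tested.

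Of the 10 genes, 7 passed the filter and 3 did not (*IRAK2*, *IRAK3* and *PELI3*). With an adjusted p below 0.05 as threshold (edgeR, quasi-likelihood test), 1 of the 7 was lower in shmiR155HG cells (*PELI2*) and 1 was higher (*IRAK1*), while 8.02% of all genes tested were lower and 7.26% higher. The normalized values of the groups did not overlap for 3 of the 7 (*IRAK1*, *IRAK4* and *PELI2*), against 30.8% of all genes tested (15.6% with shmiR155HG lower, as for *IRAK4* and *PELI2*, and 15.2% with it higher). The median log2 fold change of the 7 was −0.06, and that of all genes tested was 0.00097. By the study's rule, as rebuilt here on the filtered counts (exact test in edgeR, P under 0.01 before adjustment, change larger than 1.2-fold), 1 of the 7 was lower, again *PELI2*, and 0 were higher, where 3.8% and 4.49% of all genes tested (8.29% in either direction) were called. *PELI2* passed the filter through its shCtrl libraries alone, so that a difference was in part built into its presence among the 7.

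**Figure D1:**
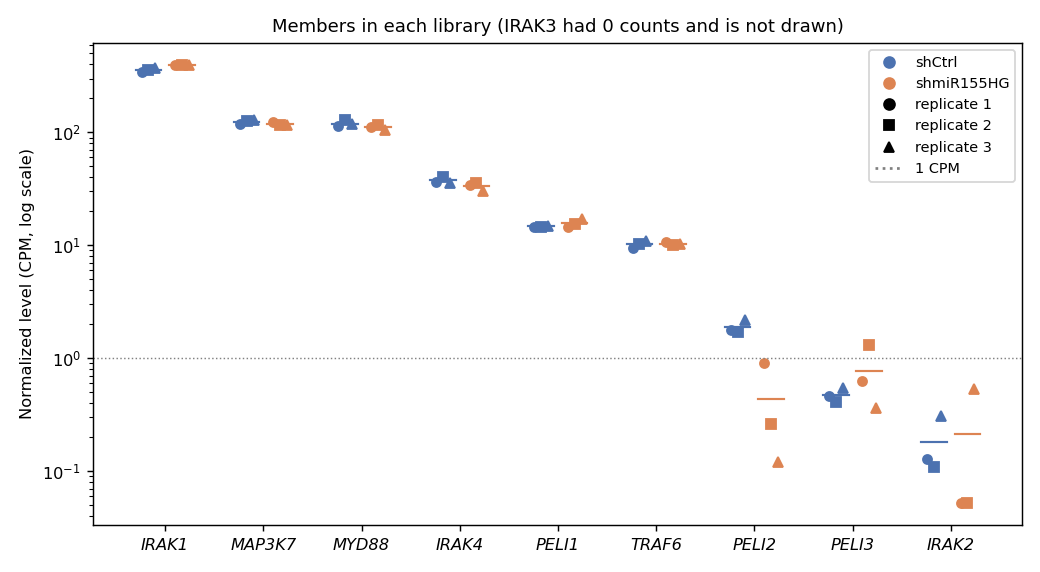
Normalized level of 9 genes in each of the 6 libraries (CPM, log axis), with shCtrl in blue, shmiR155HG in orange, a symbol per replicate and a short line at each group mean; the dotted line marks 1 CPM. *IRAK1* stands highest, *PELI2* lies between 1.70 and 2.18 CPM in shCtrl and between 0.120 and 0.912 CPM in shmiR155HG, and *IRAK3* had 0 counts in every library and is not drawn.

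*MYD88* (ENSG00000172936, hg38 chr3:38138552-38143024, plus strand) encodes the adaptor itself and has 5 exons in its canonical transcript. Its normalized level was 113.3, 127.8 and 118.1 CPM in the shCtrl libraries, against 112.7, 115.4 and 104.1 CPM in the shmiR155HG libraries. The groups overlapped, since shmiR155HG replicate 2 lay above shCtrl replicate 1. The log2 fold change was −0.11 (SE 0.053, 95% interval −0.22 to −0.0046), with an unadjusted p of 0.0416 and an adjusted p of 0.163 from the quasi-likelihood test of edgeR. A fall to 85.9% of the shCtrl level is still inside that interval. With the GC content of transcripts corrected for, as set out for *IRAK1* below, the log2 fold change was −0.15 (SE 0.052). Its adjusted p of 0.0578 from edgeR was just short of the threshold.

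*IRAK4* (ENSG00000198001, chr12:43758944-43798307, plus strand) encodes the kinase that MYD88 binds first. It had 36.6, 40.1 and 36.0 CPM in the shCtrl libraries, against 34.2, 35.4 and 30.5 CPM in the shmiR155HG libraries. The highest shmiR155HG value was below the lowest shCtrl value, by a narrow margin. The log2 fold change was −0.17 (SE 0.081, interval −0.34 to −0.0028) with an adjusted p of 0.175 from edgeR, so the gene did not pass the threshold. Its exons overlap those of *TWF1* on the opposite strand over 103 nt, and *TWF1* had a log2 fold change of 0.04 (SE 0.062).

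*IRAK1* (ENSG00000184216, chrX:154010506-154019902, minus strand) encodes the kinase that IRAK4 phosphorylates, and it was the most abundant of the 10. Its level was 341.1, 355.7 and 368.2 CPM in the shCtrl libraries, against 397.5, 397.8 and 398.6 CPM in the shmiR155HG libraries. Each shmiR155HG library lay above each shCtrl library, and the shmiR155HG libraries differed among themselves by less (SD 0.605 CPM) than the shCtrl libraries (SD 13.6 CPM). *IRAK1* rose by 12.1% in the fit, a log2 fold change of 0.16 (SE 0.035, interval 0.09 to 0.24, adjusted p = 0.00136 from edgeR).

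This rise was not called once the GC content of transcripts was corrected for. The canonical *IRAK1* transcript is 62.7% G and C, and in these libraries the log2 fold changes of all genes moved with GC content, from a median of −0.05 over 2114 genes under 40% to 0.08 over 1715 genes at 60% and above. With a smooth curve on GC content removed from each library, the log2 fold change of *IRAK1* was 0.08 (SE 0.033, adjusted p = 0.106 from edgeR). The rebuilt study rule did not call it either, since the change was smaller than 1.2-fold.

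*IRAK2* (ENSG00000134070, chr3:10164919-10243745, plus strand), which encodes a further IRAK kinase of the complex, had 5, 4 and 12 counts in the shCtrl libraries, against 2, 2 and 18 in the shmiR155HG libraries. The lowest and the highest of these counts both came from shmiR155HG libraries, and no difference was detectable at this depth. *IRAK3* (ENSG00000090376, chr12:66189195-66254622, plus strand) had 0 counts in all 6 libraries, and a count of 0 allows up to 3 counts per library, or 0.0770 to 0.0897 CPM. This limit covers counting error only. The mRNA of the IRAK known as an inhibitor was thus not detected in either group.

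*TRAF6* (ENSG00000175104, chr11:36483769-36510272, minus strand) encodes the E3 ligase that IRAK1 and IRAK2 recruit. It had 9.38, 10.4 and 10.98 CPM in the shCtrl libraries, against 10.7, 10.0 and 10.2 CPM in the shmiR155HG libraries. The shmiR155HG values lay within the range of the shCtrl values, and the log2 fold change was 0.0078 (SE 0.14, interval −0.28 to 0.30, adjusted p = 0.982 from edgeR). Its sign turned when shCtrl replicate 1 (−0.05) or shmiR155HG replicate 1 (−0.02) was left out.

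*MAP3K7* (ENSG00000135341, chr6:90513573-90587086, minus strand) encodes TAK1, the kinase downstream of TRAF6. Its level was 118.1, 125.4 and 129.0 CPM in the shCtrl libraries, against 124.6, 117.1 and 115.5 CPM in the shmiR155HG libraries. The groups overlapped. With a log2 fold change of −0.06 (SE 0.049, interval −0.16 to 0.04, adjusted p = 0.465 from edgeR), it had one of the narrower intervals, which reaches from 89.5% to 102.8% of the shCtrl level.

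**Figure D2:**
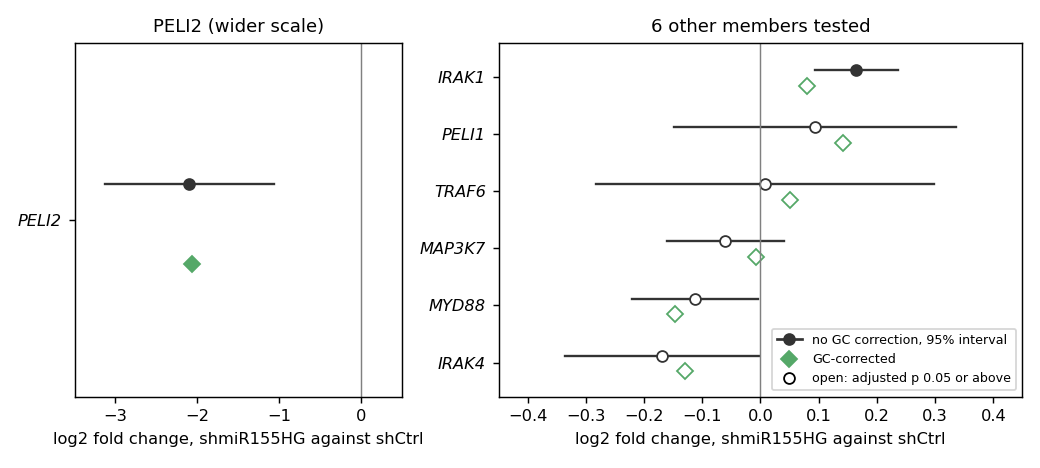
Log2 fold change of the 7 genes that passed the filter, shmiR155HG against shCtrl, with *PELI2* on a wider axis at left. Black circles carry 95% intervals from the quasi-likelihood test, green diamonds are the values after the GC correction, and open symbols have an adjusted p of 0.05 or above. *PELI2* is filled in both, at −2.10 and −2.06, while *IRAK1* is filled at 0.16 and open at 0.08.

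*PELI1* (ENSG00000197329, chr2:64092652-64144420, minus strand) was the most abundant Pellino mRNA. It had 14.7, 14.7 and 14.96 CPM in the shCtrl libraries, against 14.6, 15.4 and 17.2 CPM in the shmiR155HG libraries. The shCtrl libraries lay close together (SD 0.174 CPM), and shmiR155HG libraries fell on both sides of them. The log2 fold change was 0.09 (SE 0.12, interval −0.15 to 0.34, adjusted p = 0.671 from edgeR).

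*PELI2* (ENSG00000139946, chr14:56117814-56301524, plus strand, 6 exons in a canonical transcript of 5871 nt) had 69, 62 and 85 counts in the shCtrl libraries, against 35, 10 and 4 counts in the shmiR155HG libraries. This is 1.77, 1.70 and 2.18 CPM against 0.912, 0.263 and 0.120 CPM. Every shmiR155HG library was below every shCtrl library, but shmiR155HG replicate 1 stood well above the other two of its group, with a coefficient of variation of 97.9% in shmiR155HG against 13.8% in shCtrl. In the fit *PELI2* fell by 2.10 on the log2 scale (SE 0.50, interval −3.13 to −1.07, adjusted p = 0.00418 from edgeR), to 23.4% of the shCtrl level with an interval from 11.4% to 47.7%.

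The size of this fall depended on single libraries, while the call was kept whichever library was left out. The filter for these fits used all 6 libraries, and *PELI2* passed it through shCtrl alone. The gene was also chosen with its fall known, so the kept call is a description. Without shmiR155HG replicate 1 the log2 fold change was −3.26, without shmiR155HG replicate 3 it was −1.67, and without shmiR155HG replicate 2 it was −1.83 with the highest adjusted p of all alternatives, 0.0462 from edgeR. Without any filter on low counts the value was −2.11 (adjusted p = 0.000155), and after the GC correction it was −2.06 (adjusted p = 0.00526). The antisense gene *AL138995.1*, whose exons share 177 nt with *PELI2*, had 0 counts in all 6 libraries. In bulk RNA, fewer cells that express *PELI2* and less *PELI2* RNA per cell cannot be told apart.

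*PELI3* (ENSG00000174516, chr11:66466327-66477337, plus strand) had 18, 15 and 21 counts in the shCtrl libraries, against 24, 50 and 12 counts in the shmiR155HG libraries. It exceeded 1 CPM in 1 library, shmiR155HG replicate 2, and was not tested. The shmiR155HG values reached both below and above the shCtrl values. Its exons overlap those of *MRPL11* over 119 nt and of the lncRNA *AP002748.4* over 615 nt, both on the opposite strand, so a part of its few counts could belong to these if strand was not used in counting.

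Set side by side per kb of exon, the Pellino mRNAs were unequal in both groups. *PELI1* made up 89.5% ± 1.16 (SD, n = 3) of the summed Pellino level in shCtrl and 93.5% ± 3.47 (SD, n = 3) in shmiR155HG. The share of *PELI2* was 7.14%, 6.87% and 8.44% in the shCtrl libraries, against 3.76%, 1.02% and 0.444% in those of shmiR155HG. That of *PELI3* was 2.97% ± 0.335 (SD, n = 3) in shCtrl and 4.77% ± 3.03 (SD, n = 3) in shmiR155HG, where it lay above the share of *PELI2* in all 3 libraries. A lower *PELI2* therefore took away a small part of the summed Pellino mRNA, which was mostly *PELI1* in each library.

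**Figure D3:**
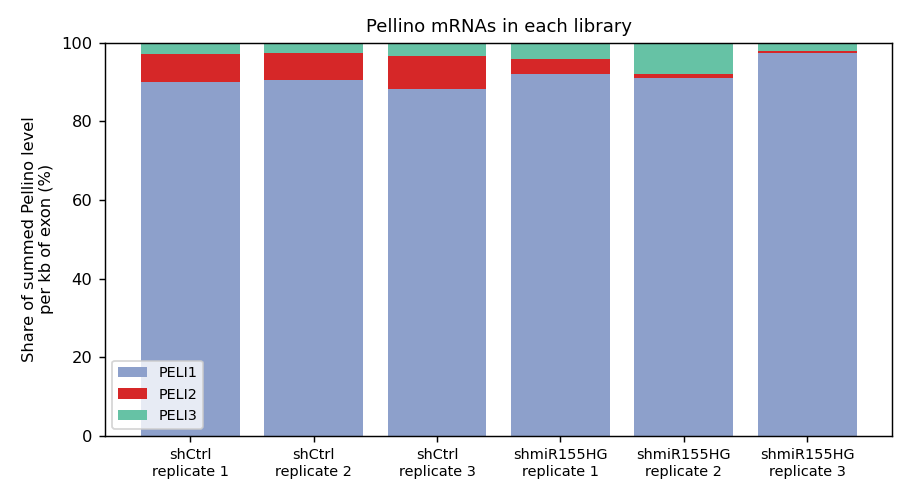
Share of *PELI1*, *PELI2* and *PELI3* in the summed Pellino level per kb of exon (%) in each of the 6 libraries, as stacked bars that add up to the whole. *PELI1* fills 88.2% to 97.4% of each bar, and the *PELI2* band, 6.87% to 8.44% in shCtrl, is at most 3.76% in shmiR155HG.

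Across the 10 genes, levels per kb of exon spanned a wide range in shCtrl cells. They were, in CPM per kb (mean ± SD, n = 3), 83.3 ± 3.18 for *IRAK1*, 28.6 ± 1.75 for *MYD88* and 13.03 ± 0.583 for *MAP3K7*. These 3 were followed by *IRAK4* at 5.14 ± 0.302, *PELI1* at 3.61 ± 0.0425 and *TRAF6* at 1.26 ± 0.0993. *PELI2* at 0.302 ± 0.0415, *PELI3* at 0.120 ± 0.0164, *IRAK2* at 0.0531 ± 0.0319 and *IRAK3* at 0 closed the order. In shCtrl no gene's range over libraries overlapped that of its neighbor in this order. Per kb, the mRNAs of the adaptor and of the kinases *IRAK1*, *IRAK4* and *MAP3K7* stood above that of the ligase *TRAF6*. *IRAK1* stood 16.2-fold above *IRAK4*, a ratio that depends on the exon length. With the longest transcript as length these 2 were at 99.1 and 7.78 CPM per kb.

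In shmiR155HG cells the first 6 places were held by the same genes, with *PELI1* (3.58 to 4.21 CPM per kb) now reaching into the range of *IRAK4* (4.17 to 4.84). Below them *PELI3*, at 0.195 ± 0.126 CPM per kb (SD, n = 3), stood above *PELI2*, at 0.0691 ± 0.0677 (SD, n = 3), with overlapping ranges, and *PELI2* also overlapped *IRAK2*, at 0.0625 ± 0.0818 (SD, n = 3). Exon length was the union over all annotated transcripts. With the longest transcript in its place *MAP3K7* was at 25.2 CPM per kb in shCtrl, and within each group the order of the 10 genes was the same as with the union. In shmiR155HG *PELI1* (3.94 to 4.63 CPM per kb) then lay below *IRAK4* (6.32 to 7.34) without overlap.

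Since *MIR155HG* is the host transcript of miR-155, and *IRAK1* and *TRAF6* are textbook targets of miR-146, the 3′UTRs of the 10 genes were searched for seed matches of both. The mature miRNAs are shown 5′ to 3′ with the seed (bases 2 to 8) in capitals, from RefSeq (GRCh38.p14), and miR-146a and miR-146b share their seed.
hsa-miR-155-5p: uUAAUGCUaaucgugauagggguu
hsa-miR-146a-5p: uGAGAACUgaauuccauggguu
hsa-miR-146b-5p: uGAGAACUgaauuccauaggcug
No miRNA was measured in these libraries, so the matches describe the transcripts and not any regulation in these cells. Matches of other miRNAs were not searched.

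A match to the miR-146 seed (AGTTCTC) was present in the canonical 3′UTR of 3 of the 10 genes, *IRAK1*, *IRAK4* and *TRAF6*, and in 12.5% of the 10762 tested genes with a 3′UTR. *IRAK1* had 2 matches, at positions 40 and 56 of a 3′UTR of 1352 nt, *TRAF6* had 4 in 6069 nt and *IRAK4* had 1 in 2826 nt. The 2 of *IRAK1*, the first 2 of *TRAF6* and that of *IRAK4* are printed on the transcript strand with the match in capitals, because these are the kinase and ligase steps that share the motif.
IRAK1, chrX:154011812-154011833: aatccggaagtcaaAGTTCTCa
IRAK1, chrX:154011796-154011817: ttctcatggtcagaAGTTCTCa
TRAF6, chr11:36489358-36489379: gctctagaaagttgAGTTCTCa
TRAF6, chr11:36489293-36489314: ccttggaaaacttaAGTTCTCa
IRAK4, chr12:43789248-43789269: actggtgatgagtgAGTTCTCa
The log2 fold changes of the 3 genes were 0.16 for *IRAK1*, 0.0078 for *TRAF6* and −0.17 for *IRAK4*. *MIR3142HG*, the host gene of miR-146a, had 15.5 ± 1.46 CPM (SD, n = 3) in shCtrl and 14.1 ± 1.17 CPM (SD, n = 3) in shmiR155HG, and its log2 fold change of −0.14 had an SE of 0.12 (adjusted p = 0.514 from edgeR).

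A match to the miR-155 seed (AGCATTA) was present in 1 of the 10 genes, *MAP3K7*, which had 2 of them, at positions 1307 and 1344 of 2922 nt, and in 11.9% of the tested genes with a 3′UTR. They are shown because *MAP3K7* is the only one of the 10 with this match.
MAP3K7, chr6:90515187-90515208: agtctgatttttatAGCATTAa
MAP3K7, chr6:90515150-90515171: aagttcaaaatgaaAGCATTAa
*MAP3K7* had a log2 fold change of −0.06 and was not called. *PELI2* has neither the miR-155 nor the miR-146 match in a 3′UTR of 4358 nt. Whether matches and fold changes are related was not tested. With the weaker site of positions 2 to 7 followed by A, *MYD88* and *PELI1* also had a match for miR-155.

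The other genes of the pathway came from lists by role with 112 genes in all, of which 81 passed the filter. Of these, 10 were lower and 8 higher in shmiR155HG (22.2%, against 15.3% of all genes tested), and the median log2 fold change was −0.0053. Changes in both directions stood side by side at most steps below the receptors.

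Upstream, *IL18R1* and *IL18RAP*, the chains of the IL-18 receptor, were the 2 of 4 tested IL-1 family receptor genes that fell. *IL18R1* had 63.8 ± 3.74 CPM (SD, n = 3) in shCtrl and 37.9 ± 1.52 CPM (SD, n = 3) in shmiR155HG, and *IL18RAP* had 14.8 ± 0.740 against 5.29 ± 0.792 CPM. *IL1R1*, a receptor for IL-1, had 3.77 ± 0.742 CPM (SD, n = 3) in shCtrl and 2.33 ± 0.931 CPM (SD, n = 3) in shmiR155HG, and its log2 fold change of −0.70 with an SE of 0.30 did not pass the threshold (adjusted p = 0.118 from edgeR). *SIGIRR*, an inhibitory receptor of the family, had a log2 fold change of 0.07 (SE 0.15), with its sign turned by the GC correction (−0.02). Of the Toll-like receptors only *TLR3*, which does not signal through MYD88, passed the filter, at 5.85 ± 1.51 CPM (SD, n = 3) in shCtrl and 5.38 ± 0.136 CPM (SD, n = 3) in shmiR155HG. The other 9 had between 0 and 55 counts per library, and *TLR2*, *TLR4* and *TLR5* had 0 in all. None of the 5 tested Toll-like receptor and helper genes was called by edgeR, DESeq2 or limma-voom, and 1 had an unadjusted p under 0.05. Over all 12263 genes tested, 3343 had an unadjusted p under 0.05 in the quasi-likelihood test of edgeR. Of the 2 tested ligand and inhibitor genes, *IL1RN*, the antagonist of the IL-1 receptor, had a log2 fold change of −0.18 (adjusted p = 0.0562 from edgeR), which was −0.20 and called after the GC correction (adjusted p = 0.0329), and *IL18BP* was not called. *IL18* itself had at most 2 counts in a library.

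Among 9 tested adaptors and their regulators, *TOLLIP*, which binds IRAK1 and restrains it, rose by 0.41 on the log2 scale (SE 0.077, adjusted p = 0.000385 from edgeR), from 31.7 ± 1.04 to 42.2 ± 2.71 CPM (SD, n = 3). *PIK3AP1*, an adaptor that links Toll-like receptors and PI3K, fell by 0.48 (SE 0.041, adjusted p = 1.32e-09), from 196.9 ± 3.20 to 141.2 ± 3.91 CPM (SD, n = 3). The other 7, *TIRAP* and *TICAM1* among them, did not pass the threshold.

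At the ubiquitin step, 2 of 13 genes fell and 2 rose. *TIFA*, which binds TRAF6, fell by 0.45 on the log2 scale (SE 0.073, adjusted p = 6.31e-05 from edgeR). *UBE2V1*, a partner of the E2 enzyme that works with TRAF6, fell by 0.29 (SE 0.042, adjusted p = 1.63e-05), while that E2 enzyme, *UBE2N*, had a log2 fold change of −0.04 (SE 0.042). *BIRC2* rose by 0.22 (SE 0.061, adjusted p = 0.0128) and *TRAF3* by 0.15 (SE 0.044, adjusted p = 0.0168), the latter not called after the GC correction (adjusted p = 0.0741). These 2 rises were smaller than 1.2-fold and were not called by the rebuilt study rule. Without shmiR155HG replicate 2, or without replicate 3, 5 pathway genes were called higher, against 8 in the main fit. Whether *BIRC2* or *TRAF3* kept a call there was not looked at. None of 12 deubiquitinases and other brakes was called in the quasi-likelihood test of edgeR, DESeq2 or limma-voom. An unadjusted p under 0.05 in edgeR was found for 4 of the 12, against 3343 of all 12263 genes tested. After the GC correction *ZC3H12A*, an RNA-degrading brake on inflammatory transcripts, was called lower, with a log2 fold change of −0.20 (adjusted p = 0.0183 from edgeR). For *TNFAIP3*, which encodes A20, the log2 fold change was 0.15 with an SE of 0.075 (adjusted p = 0.180).

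The partners of TAK1 showed no call, with log2 fold changes of −0.07 for *TAB1* (SE 0.074), −0.02 for *TAB2* (SE 0.047, 0.02 after the GC correction) and 0.05 for *TAB3* (SE 0.073). In the same list of 10, *MAP3K8*, the kinase TPL2, rose by 0.45 (SE 0.11, adjusted p = 0.00736 from edgeR) and *IKBKB*, an IκB kinase, by 0.21 (SE 0.058, adjusted p = 0.0146). The rise of *IKBKB* was smaller than 1.2-fold and was not called by the rebuilt study rule. Its call was not looked at with single libraries left out. *IKBKE* fell by 0.29 (SE 0.089, adjusted p = 0.0248) and *MAP3K14*, the kinase NIK, by 0.27 (SE 0.069, adjusted p = 0.00754). The call of *IKBKE* was lost without shCtrl replicate 1 or 3 or any 1 of the shmiR155HG libraries, with adjusted p-values up to 0.0918 over its alternatives, and that of *MAP3K8* without shCtrl replicate 2 (0.0525).

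Farther down, *MAP2K3*, a kinase of p38, was the 1 of 12 MAP kinase genes called higher, by 0.25 (SE 0.050, adjusted p = 0.000580 from edgeR). The rebuilt study rule did not call *MAP2K3*, since its change was smaller than 1.2-fold. Of 12 tested NF-κB genes, *NFKBIE* rose by 0.44 (SE 0.11) and *BCL3* by 0.18 (SE 0.050), while *NFKBIZ* fell by 0.41 (SE 0.081) and *NFKBIA*, the gene of IκBα, by 0.29 (SE 0.042). *BCL3* was not called after the GC correction (adjusted p = 0.332), nor by the rebuilt study rule, since its change was smaller than 1.2-fold. *RIPK2*, a kinase that acts with Pellino ligases after NOD2, fell by 0.23 (SE 0.064, adjusted p = 0.0162). It lost its call after the GC correction (0.0535), without shmiR155HG replicate 2, without shmiR155HG replicate 3 and under the rebuilt study rule. *RIPK3* was at 0 in all 6 libraries.

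**Figure D4:**
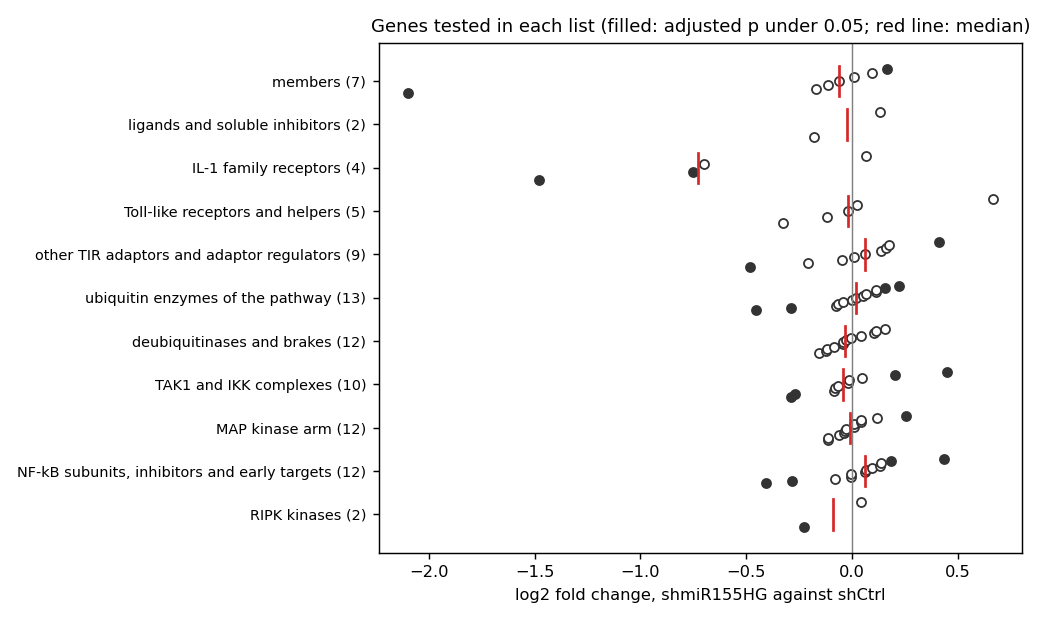
Log2 fold change (shmiR155HG against shCtrl) of each gene tested in the list of 10 (top, "members") and in the lists of other pathway genes, with the number tested in parentheses; filled circles have an adjusted p under 0.05 and red lines are medians. *PELI2* at −2.10 and *IL18RAP* at −1.48 lie farthest to the left, and most other genes lie close to 0.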

How the data were processed

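RNA from 6 NK92 libraries (shCtrl and shmiR155HG, n = 3 each) was analysed. The deposited values are whole-number counts per gene without normalization, which the authors obtained with prepDE.py3 from StringTie estimates limited to known transcripts, after HISAT2 alignment against hg38. The annotation release, the strand setting and the read length set in prepDE.py3 are not given in the sources used here. Groups follow the sample titles, because for shmiR155HG replicates 2 and 3 the treatment field numbers the target differently. The counts were fitted with edgeR 4.0.16 under R 4.3.3 (TMM, robust quasi-likelihood test, Benjamini-Hochberg adjustment over 12263 genes, two-sided), limma 3.58.1 and DESeq2 1.42.0. SE values are of log2 fold changes, taken from the F statistic, and SD values of normalized CPM. Total counts were 33454786 to 39157264, so 1 count is 0.0257 to 0.0299 CPM, and duplicates make counting limits too narrow. Mean chi-square per gene between replicates was 7.04 to 10.1, where sampling alone gives about 1 if counts are independent. The read length set in prepDE.py3 scales these counts and is not known, so agreement within sampling noise was not settled. The chi-square also does not tell separate cultures from repeat preparations of the same RNA.

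Gene positions, exon lengths, GC content (12216 of 12263 genes) and 3′UTRs came from GENCODE v44 on hg38, with 36366 of 36601 gene IDs matched, and miRNAs from RefSeq. Printed 3′UTR sites were checked against the hg38 sequence, and 9 of 9 sites found were equal to it. On simulated data with 12263 genes and 200 changed, the quasi-likelihood test recovered 73.0% of changes of 0.5, 90.3% of 1 and 98.5% of 2 on the log2 scale, and called 0.116% of unchanged genes. Fewer genes were changed than the 1874 called in the data, and the adjustment of p-values depends on that number. No smaller change and no GC trend was simulated, and low-count genes were not looked at apart. These shares therefore do not give the power for single members. Members and pathway lists were chosen with earlier results of these data known. Named genes were the members, their direct partners, and the called genes of each list with no overlap between groups (the 2 largest by rule, all where a list had 5 or fewer calls); other genes named were chosen after their values were seen. Alternatives were the scaling, filter, test, halved counts, replicate block, GC correction (loess per library) and each library left out.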

Additional observations from a re-analysis of the deposited data

How the results depend on the processing

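Of the 7 members tested, *IRAK4*, *MAP3K7*, *MYD88* and *PELI1* kept their direction and stayed uncalled in 18 alternatives each, and *PELI2* stayed lower and called in the 17 that gave a value. At a mean of at least 5 CPM *PELI2* was removed by the filter, which left 0 members called lower. *IRAK1* had a value above 0 in 18 alternatives (0.08 to 0.19), but 0 members were called higher under the study's rule, the GC correction or the replicate block with GC correction (0.08). Same-numbered libraries of the groups showed no shared deviation, with correlations of −0.01, 0.01 and 0.02. This does not tell whether they were prepared in pairs. The replicate block alone moved *PELI2* to −2.33 and left 909 genes lower and 829 higher, against 984 and 890. The study's rule, as rebuilt here, called 466 genes lower and 551 higher, and 9 pathway genes lower and 3 higher. Leaving out 1 library gave 677 to 921 genes called lower and 579 to 894 called higher. It gave 8 to 10 pathway genes called lower and 5 to 8 called higher, and 1 member called in each direction. The 5 came without shmiR155HG replicate 2 or without replicate 3, and *TOLLIP*, *MAP3K8*, *MAP2K3* and *NFKBIE* kept their calls there. *TRAF6* ran from −0.051 to 0.063 over the fits with 1 library left out and *SIGIRR* from −0.040 to 0.12. With the GC correction *SIGIRR* turned to −0.022 (−0.027 with the block) and *TAB2* to 0.016 (0.016 with the block). With the longest transcript as length, shCtrl levels per kb were 99.1 for *IRAK1*, 25.2 for *MAP3K7*, 7.78 for *IRAK4*, 3.97 for *PELI1* and 0.169 for *PELI3*. With the weaker seed site 3 members matched miR-155. Apart from filters, the cause of these shifts was not tested. Depth limits *IRAK2*, *PELI3* and *PELI2*, whose counts reach down to 2, 12 and 4.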
